A study of Mus musculus with 6 samples.

Results

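The NR4A receptors and the CREB-family factors and coactivators that act on their genes were examined in quadriceps muscle of control mice and mice with induced deletion of *Dnm1l* in muscle fibers. The 10 genes were taken by symbol from the 6 count files, which list 27179 genes each, and were *Nr4a1*, *Nr4a2*, *Nr4a3*, *Creb1*, *Crem*, *Atf1*, *Crtc1*, *Crtc2*, *Crtc3* and *Crebbp*. All 10 were among the 16483 genes with enough counts to be tested. Drp1, encoded by *Dnm1l*, is the dynamin-related GTPase that divides mitochondria. The 3 miDrp1KO libraries (A, E and F) came from male mice with floxed *Dnm1l* and HSA-MerCreMer, a tamoxifen-activated Cre driven by the human *ACTA1* promoter, which is active in skeletal muscle fibers and not in the other cells of the tissue. The 3 control libraries (B, C and D) came from male mice with floxed *Dnm1l*, labelled Control f/f. According to the methods of the study, both groups received 4 daily doses of 50 mg/kg tamoxifen when 3 months old, and muscle was taken 3 weeks after deletion. The labels give normal chow for all 6 samples, and per the methods the mice were fasted before study.

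The NR4A proteins (Nur77, Nurr1 and Nor1, from *Nr4a1*, *Nr4a2* and *Nr4a3*) are orphan nuclear receptors whose genes are switched on quickly and briefly by exercise, catecholamines and calcium. CREB, CREM and ATF1 are related leucine-zipper factors that bind cAMP response elements. When protein kinase A or other kinases phosphorylate CREB it recruits the acetyltransferase CBP, encoded by *Crebbp*, while the CRTC coactivators enter the nucleus after dephosphorylation and bind the same factors. These steps act on protein, and transcript counts do not record phosphorylation or nuclear entry.

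The promoters of the 3 receptor genes are shown because cAMP response elements there are how the factors of this group reach the receptors. The 250 bases before the transcript start were read for the half-site TGACG on either strand, the full element TGACGTCA, the variant TGCGTCA (whose reverse strand holds TGACG, so the counts overlap), the NR4A element AAAGGTCA and the CArG box of serum response factor. *Nr4a1*, *Nr4a2* and *Nr4a3* each held 4 TGACG half-sites. Among 32851 promoters of the same length 17.8% held at least 1, and 0.137% held 4 or more. In *Nr4a1* each of the 4 lay within TGCGTCA, a variant found in 1.75% of promoters. *Atf1* held 1 half-site, also within TGCGTCA, and *Creb1*, *Crtc1*, *Crtc3* and *Crebbp* held 0. TGACGTCA (1.55% of promoters), AAAGGTCA (1.34%) and the CArG box (1.47%) were in none of these 8 windows. *Crem* and *Crtc2* had no entry. A match is a string of letters and not a measured binding site. Sequences are from RefSeq (GRCm38.p6), 5′ to 3′ on the strand of the gene, with half-sites in capitals. They lie at chr15:101266596-101266845 (*Nr4a1*, plus strand, inside the span of the longest gene model), chr2:57124004-57124253 (*Nr4a2*, minus strand, before the gene) and chr4:48045055-48045107 (*Nr4a3*, plus strand, the first 53 bases of its window, with 3 of its 4 half-sites, of which 2 lie wholly inside the longest gene model).
Nr4a1: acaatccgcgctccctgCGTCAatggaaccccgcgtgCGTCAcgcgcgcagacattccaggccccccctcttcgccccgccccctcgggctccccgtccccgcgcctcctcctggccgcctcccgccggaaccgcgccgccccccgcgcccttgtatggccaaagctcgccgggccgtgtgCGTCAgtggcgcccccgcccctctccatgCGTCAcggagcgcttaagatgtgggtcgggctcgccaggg
Nr4a2: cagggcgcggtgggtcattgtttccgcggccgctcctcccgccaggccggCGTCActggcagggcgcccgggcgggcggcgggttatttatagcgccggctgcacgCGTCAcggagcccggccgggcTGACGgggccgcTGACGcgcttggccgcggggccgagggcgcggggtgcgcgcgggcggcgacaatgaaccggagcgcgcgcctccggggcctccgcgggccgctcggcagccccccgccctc
Nr4a3: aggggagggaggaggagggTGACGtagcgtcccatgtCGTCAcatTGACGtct

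Libraries held 13989588 to 62042255 counts in the controls and 20028624 to 28829756 in miDrp1KO. Levels are CPM, counts divided by the library total after TMM scaling, in which 1 count is worth 0.0167 to 0.0729 CPM. *Dnm1l* itself was at 114 to 156 CPM in the controls and 66.2 to 81.3 CPM in miDrp1KO, with no overlap. Its log2 fold change of −0.91 had an adjusted p of 0.362 (edgeR quasi-likelihood test, Benjamini-Hochberg). The TMM factor of E, 1.42, stood apart from the other 5 (0.840 to 1.04). Ribosomal RNA took 3.68% to 26.2% of counts across the 6 libraries. The summed level of 12 skeletal fiber markers was 255000 to 309360 CPM in the controls, 235140 in A, 142390 in E and 119380 in F. *Ttn* and *Myh4* made up 57.3% to 65.3% of that sum in the controls and 32.3% in F. Of the 12 markers, 6 were below the lowest control in A, 9 in E and 8 in F, while *Mylpf*, *Pvalb*, *Ckm* and *Myh1* were within the control range in F. The share of all genes below the lowest control in each library was not counted. In whole muscle, fewer cells of a type and less RNA per cell cannot be told apart. The labels name separate mice only through numbers in the sample titles, so the tests measure the spread between these samples.

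*Nr4a1* was by far the most abundant receptor, and its level was low in 2 of the 3 miDrp1KO libraries. *Nr4a1* (Entrez 15370, chr15:101253902-101274795 on GRCm38) was at 94.0 CPM in B, 108 in C and 80.7 in D among the controls. In miDrp1KO it was at 103 CPM in A, 48.5 in E and 39.4 in F. Thus E and F lay below every control while A lay within the control range, and the groups overlapped. The means were 94.2 ± 13.6 CPM in the controls and 63.7 ± 34.5 in miDrp1KO (SD, n = 3 each, exact two-sided permutation test, p = 0.3, where 0.1 is the smallest p that 3 against 3 can give). The log2 fold change was −0.57 (SE 0.35, 95% interval −1.37 to 0.24) with an adjusted p of 0.584 by edgeR. The log2 fold change was −1.08 without A, −0.41 without E and −0.30 without F. In the same order the adjusted p was 0.0628, 0.831 and 0.843 by edgeR. A was singled out by its *Nr4a1* level, and its *Dnm1l* level of 70.6 CPM lay between those of E and F. Without A, 17.5% of all genes had an unadjusted p under 0.05, against 10.9% with all 6 libraries. E and F also had the lowest sums of fiber markers, which did not hold for every marker, and the part of fiber transcripts in the *Nr4a1* levels was not tested.

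*Nr4a2* (Entrez 18227, chr2:57106830-57124003) was low, with 16 to 165 counts. Control levels were 1.70 CPM in B, 1.17 in C and 2.75 in D. The miDrp1KO levels were 0.875 CPM in A, 1.37 in E and 0.960 in F. The groups overlapped only through E, which exceeded control C. The log2 fold change was −0.83 (SE 0.39, 95% interval −1.69 to 0.02) with an adjusted p of 0.467 by edgeR, and it was −0.40 without D.

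*Nr4a3* (Entrez 18124, chr4:48045078-48086447) varied most of the 10 genes, 10.2-fold between the highest and the lowest library. It was at 4.88 CPM in B, 1.02 in C and 3.95 in D among the controls. In miDrp1KO it was at 0.778 CPM in A, 4.61 in E and 0.480 in F, from as few as 10 counts. High and low libraries occurred in both groups. The log2 fold change of −0.70 (SE 0.98, 95% interval −3.21 to 1.80) had an adjusted p of 0.837 by edgeR, and it was −2.42 without E and −0.25 without F. *Kdr*, an endothelial receptor chosen for display with its values known, was likewise at 59.6, 41.6 and 51.1 CPM in B, D and E and at 18.4, 19.9 and 25.8 CPM in A, C and F. The summed level of 9 endothelial and mural markers was 335 to 441 CPM in B, D and E and 261 to 296 in the others. Of these 9 markers 5 (*Pecam1*, *Cdh5*, *Kdr*, *Acta2* and *Myh11*) were higher in each of B, D and E than in A, C and F, and *Tek*, *Vwf*, *Rgs5* and *Pdgfrb* were not. This split was read from the *Nr4a3* levels. The share of all genes that split the same way was not counted, so whether 5 of 9 is many cannot be said. The part of these cells in the *Nr4a3* levels was not tested.

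**Figure D1:**
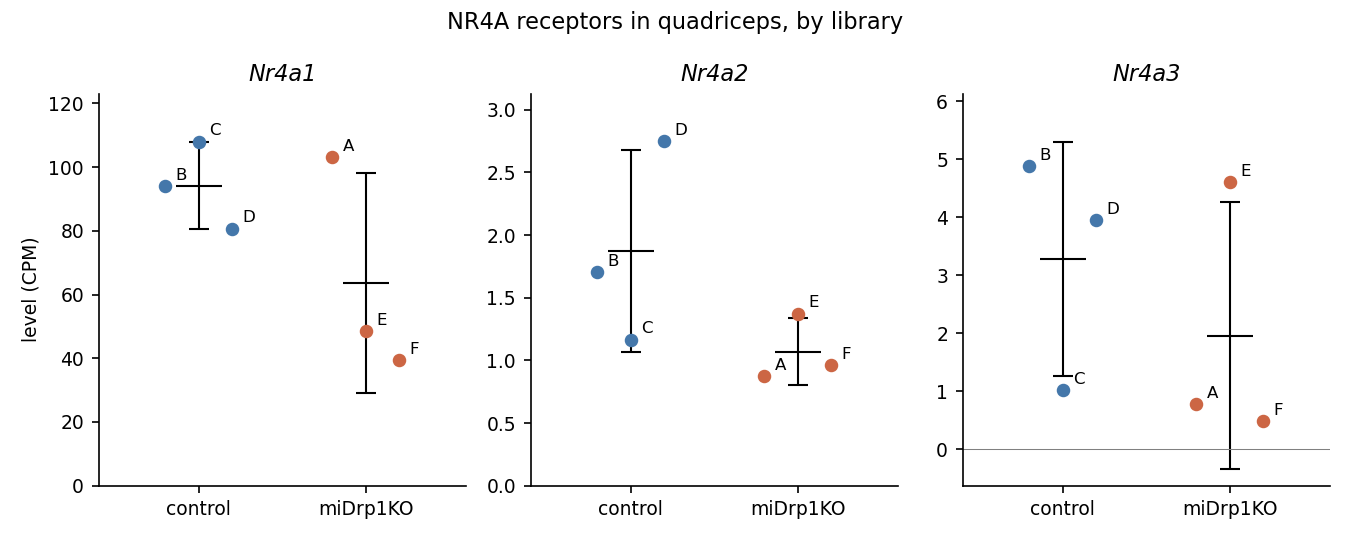
Level in CPM of the 3 NR4A receptors in control and miDrp1KO quadriceps. Points are libraries with their letters, and bars show the mean and SD of 3 libraries. A sits with the controls for *Nr4a1*, and *Nr4a3* splits B, D and E from A, C and F.

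Among the factors that bind cAMP response elements no gene had groups that separated. *Creb1* (Entrez 12912, chr1:64532794-64604548) had the narrowest spread, 52.7 to 61.0 CPM in the controls and 59.1 to 63.4 in miDrp1KO. Its individual values were 61.0, 54.1 and 52.7 CPM in B, C and D and 59.1, 63.4 and 59.8 in A, E and F. The log2 fold change was 0.12 (SE 0.15, 95% interval −0.21 to 0.45), with an adjusted p of 0.805 by edgeR. It was 0.21 without B and 0.076 without C. In fits without A or without B, which rescale the libraries left, the groups did not overlap. In those fits 37.7% and 28.5% of all genes did not overlap. At the levels given above, F (59.8 CPM) lay below B (61.0), so there leaving out A would not separate the groups. The 95% interval leaves room for miDrp1KO levels of 0.862 to 1.37 times the control.

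*Crem*, which also yields the short repressor forms called ICER, was at 12.8, 10.9 and 16.8 CPM in B, C and D. It was at 9.53, 13.4 and 12.0 CPM in A, E and F, so the groups overlapped. The log2 fold change was −0.22 (SE 0.21, adjusted p = 0.724 by edgeR), and it was −0.0085 without D. Counts per gene do not separate ICER from the full-length forms. Of the 5895 exon bases of *Crem*, 472 are shared with *Gm6225* on the opposite strand, and the strand setting of the counting is not given in the sources used here.

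*Atf1* (Entrez 11908, chr15:100227859-100261248) was at 21.4, 17.7 and 24.1 CPM in B, C and D and at 17.3, 23.5 and 20.9 CPM in A, E and F. The ranges nearly coincided. The log2 fold change was −0.04 (SE 0.18, 95% interval −0.43 to 0.36, adjusted p = 0.961 by edgeR), and it ran from −0.17 without C to 0.095 without A.

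Of the 3 CRTC coactivators only *Crtc3* had groups that did not overlap. *Crtc3* (Entrez 70461, chr7:80586627-80688948) was at 15.2, 13.6 and 12.2 CPM in B, C and D. It was at 11.7, 11.4 and 8.16 CPM in A, E and F, each below the lowest control. The means were 13.7 ± 1.5 and 10.4 ± 1.98 CPM (SD, n = 3 each, exact two-sided permutation test, p = 0.1, the smallest possible). The log2 fold change was −0.38 (SE 0.19, 95% interval −0.80 to 0.04) with an adjusted p of 0.498 by edgeR. Of all tested genes 18.0% had groups that did not overlap, against 1 of these 10, and with upper quartile scaling *Crtc3* overlapped too. Without F its log2 fold change was −0.22.

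*Crtc1* (Entrez 382056, chr8:70382352-70439702) was at 3.74, 2.62 and 3.15 CPM in B, C and D and at 2.96, 4.27 and 2.83 CPM in A, E and F. *Crtc2* (Entrez 74343, chr3:90253858-90264125) was at 4.92, 4.52 and 4.85 CPM in B, C and D and at 5.49, 3.87 and 4.56 CPM in A, E and F. In both genes the miDrp1KO values enclosed most of the control values. The log2 fold changes were 0.09 for *Crtc1* and −0.05 for *Crtc2*, with adjusted p of 0.932 and 0.960 by edgeR. Without E both changed sign, to −0.14 for *Crtc1* and 0.072 for *Crtc2*, and *Crtc1* was at 0.23 without B.

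*Crebbp* (Entrez 12914, chr16:4081334-4213957) was at 69.3, 78.6 and 63.3 CPM in B, C and D and at 81.7, 63.3 and 45.8 CPM in A, E and F. A was the highest of all 6 libraries and F the lowest. The log2 fold change was −0.15 (SE 0.21, 95% interval −0.61 to 0.32, adjusted p = 0.837 by edgeR), and it was 0.06 without F. *Ep300*, which encodes the paralogous acetyltransferase p300, had a log2 fold change of 0.11 (adjusted p = 0.844 by edgeR).

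**Figure D2:**
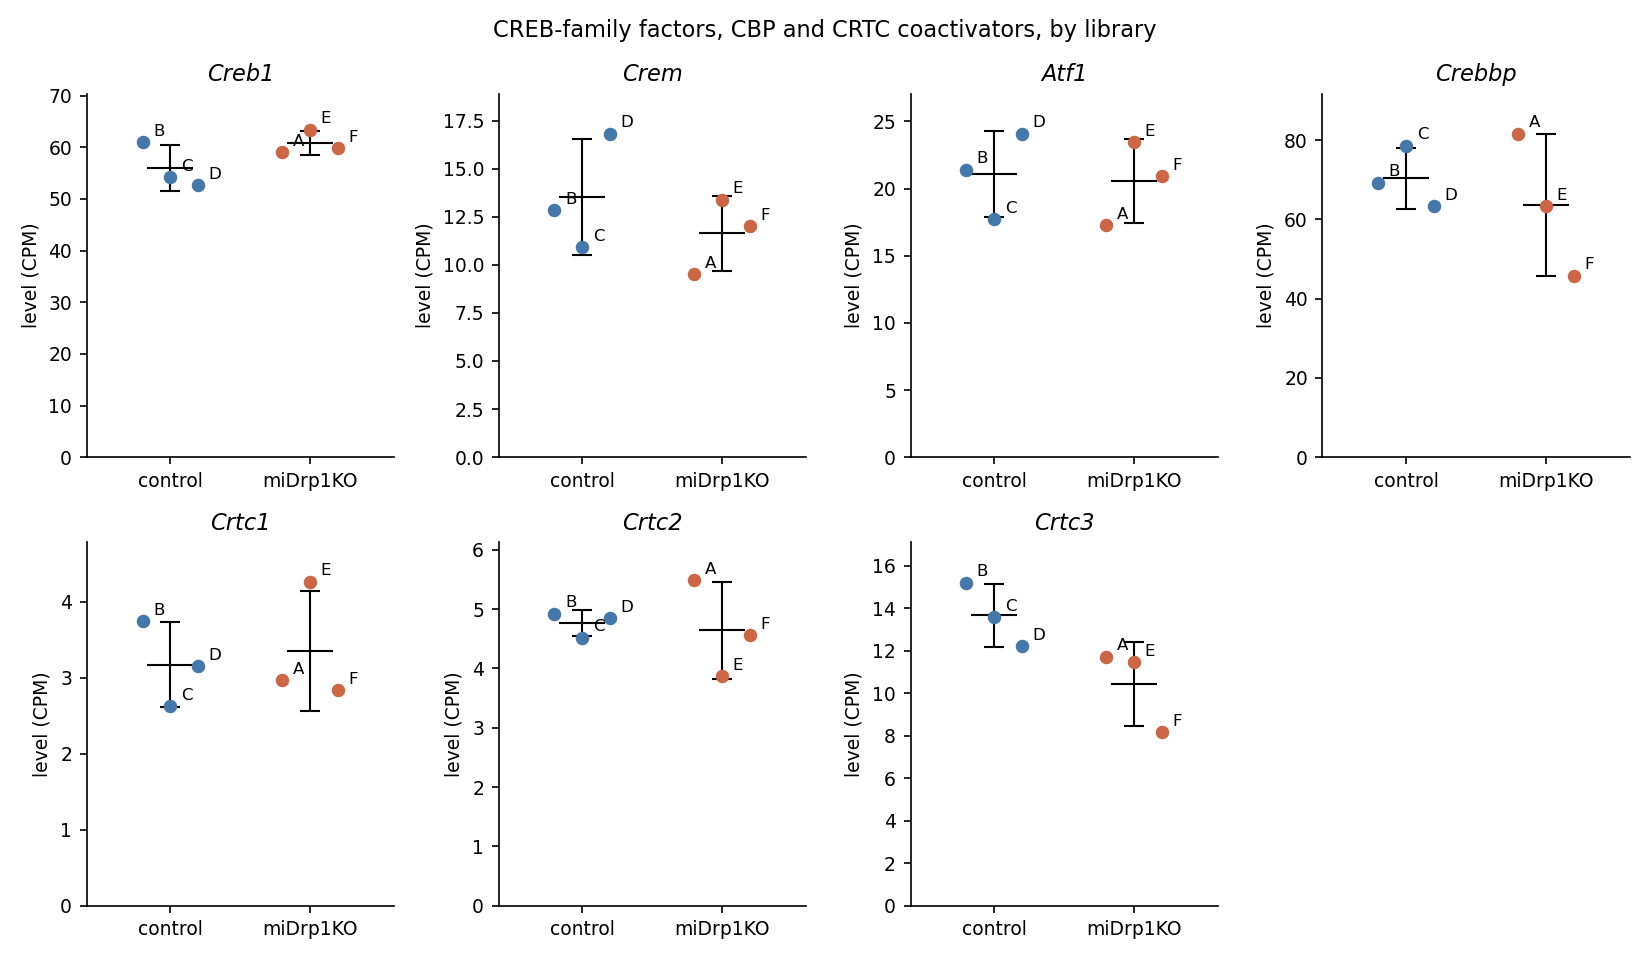
Level in CPM of the CREB-family factors, CBP and the CRTC coactivators by library. Points are libraries with their letters, and bars show the mean and SD of 3 libraries. Only *Crtc3* has every miDrp1KO library (8.16 to 11.7 CPM) below every control (12.2 to 15.2 CPM).

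Across the 10 genes the log2 fold change was negative in 8 and positive in 2, with a median of −0.18 against 0.02 over all genes tested. None had an adjusted p under 0.05, where 0.0121% of all genes did by edgeR. None had an unadjusted p under 0.05 either, where 10.9% of all genes did (4.68% higher and 6.22% lower in miDrp1KO). DESeq2, which gave an adjusted p to 2860 genes and called 4.23% of them, called 0 of the 10 and gave *Nr4a1* a log2 fold change of −0.58 and an adjusted p of 0.249. It gave an adjusted p to *Nr4a1*, *Creb1* and *Crebbp* alone.

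**Figure D3:**
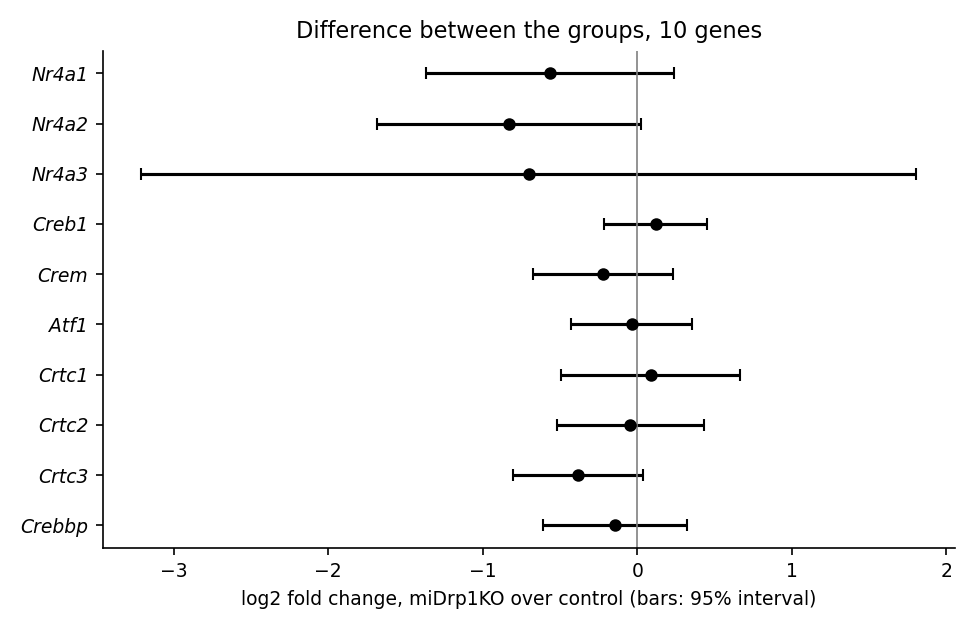
Log2 fold change of miDrp1KO over control for the 10 genes from the edgeR fit, with 95% intervals from 3 libraries a group. Every interval includes 0, and that of *Nr4a3* is the widest, from −3.21 to 1.80.

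Per kilobase of exon the control levels ran from 26.9 ± 3.89 CPM per kb for *Nr4a1* down to 0.284 ± 0.050 for *Crtc1*. *Atf1* came next at 6.88 (its controls ran from 5.79 to 7.87), then *Crebbp* at 5.20 ± 0.571, *Creb1* at 4.07 ± 0.321 and *Crem* at 2.29 ± 0.510 CPM per kb (SD, n = 3). *Crtc3* at 1.39 ± 0.152 and *Crtc2* at 1.16 ± 0.0527 were followed by *Nr4a3* at 0.548 ± 0.336 and *Nr4a2* at 0.461 ± 0.198. The control ranges of *Atf1* and *Crebbp* overlapped, with *Crebbp* at 5.81 and *Atf1* at 5.79 CPM per kb in C. *Nr4a3*, *Nr4a2* and *Crtc1* were not separated beyond their spread. Lengths are merged exons of all transcripts, which lowers the value of genes with rarely used long exons. *Nr4a1* made up 92.6% to 98.8% of the summed per-kb level of the 3 receptors in every library, so that sum followed *Nr4a1*, from 24.3 to 31.2 CPM per kb in the controls and 29.8, 14.9 and 11.5 in A, E and F.

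**Figure D4:**
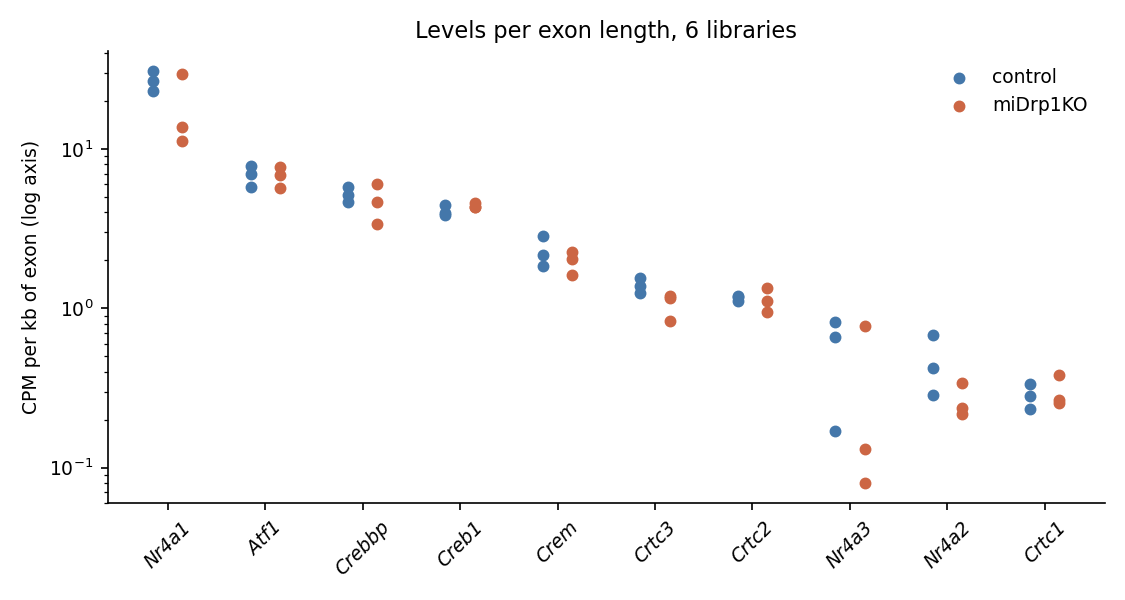
CPM per kilobase of exon on a log axis for the 10 genes, ordered by mean level, with each point 1 library. *Nr4a1* lies above the other 9 genes in all 6 libraries.

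The other genes of the pathway were described by list. Of 24 kinases that act on CREB or the CRTCs, 1 had an unadjusted p under 0.05 with a higher level and 5 with a lower level in miDrp1KO (median log2 fold change −0.19), where 4.68% of all tested genes were higher and 6.22% lower, and 0 passed adjustment. The lower ones included *Camk2b*, a calcium/calmodulin-dependent kinase, at 82.0, 78.6 and 85.1 CPM in B, C and D and 53.9, 40.1 and 44.4 in A, E and F (log2 fold change −0.83, adjusted p = 0.362 by edgeR). *Sik2*, which phosphorylates CRTCs and keeps them in the cytoplasm, had a log2 fold change of −0.63 and *Rps6ka2*, a ribosomal S6 kinase, of −0.62. *Rps6ka4* was the gene on the higher side, at 0.70. *Sik1*, itself a CREB target, was at 0.00.

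Of 25 genes of the MAP kinase cascade, 1 was higher and 4 were lower at an unadjusted p under 0.05 (median −0.12, against 4.68% higher and 6.22% lower of all tested genes), and 0 passed adjustment. *Srf*, a partner of the ternary complex factors, had a log2 fold change of −0.60, *Elk4*, one of those factors, −0.55 and *Sos2*, a Ras exchange factor, −0.46. *Mapk3* had 0.04, with an adjusted p of 0.965 by edgeR.

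The 3 retinoid X receptors, which pair with Nur77 and Nurr1, were each lower in every miDrp1KO library than in every control. Of all tested genes 18.0% had groups that did not overlap, in either direction. *Rxra* had a log2 fold change of −0.55, *Rxrg* of −0.52 and *Rxrb* of −0.17. None passed adjustment (adjusted p = 0.392, 0.416 and 0.703 by edgeR). The list of 12 fiber markers had a median log2 fold change of −0.55 in the same libraries. The part of fiber transcripts in the retinoid X receptor levels was not tested.

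Among 20 CREB and CRTC target genes 3 were higher and 2 lower at an unadjusted p under 0.05 (median 0.12, against 4.68% and 6.22% of all tested genes), and 0 passed adjustment. *Junb*, an AP-1 subunit, was at 7.15 ± 0.480 CPM in the controls and at 17.9 ± 5.60 CPM in miDrp1KO (SD, n = 3), above every control in each of the 3 libraries. Its log2 fold change was 1.31 (adjusted p = 0.308 by edgeR). *Klf4* had 0.75 and *Rgs2*, a regulator of G protein signaling, 0.52. *Pck1*, the gluconeogenic and glyceroneogenic enzyme, had −1.45. *Pck1* is also an adipocyte transcript, and the summed level of 5 adipocyte markers was 170 to 362 CPM in the controls and 65.3 to 167 CPM in miDrp1KO, whose part in the *Pck1* levels was not tested. *Junb* and *Klf4* are also in the list of 21 immediate-early genes, of which 4 were higher and 0 lower (median 0.38), against the same shares of all genes. In the same libraries 2 of 8 macrophage and leukocyte markers were higher (*Ptprc*, 0.42, and *Lyz2*, 0.57), with a summed level of 126 to 235 CPM in the controls and 199 to 211 in miDrp1KO. None of 5 fibroblast and 5 nerve and Schwann markers had an unadjusted p under 0.05, with positive log2 fold changes in all 10 (medians 0.26 and 0.44). The part of these cells in the *Junb* and *Klf4* levels was not tested.

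Of 20 muscle genes linked to NR4A receptors 8 were lower and 0 higher at an unadjusted p under 0.05 (median −0.36, against 6.22% lower and 4.68% higher of all tested genes), and 0 passed adjustment. *Lpin1*, a phosphatidate phosphatase, had a log2 fold change of −0.72, *Pygm*, muscle glycogen phosphorylase, of −0.89, *Pfkm*, muscle phosphofructokinase, of −0.75 and *Ucp3* of −0.64. The ubiquitin ligase genes *Fbxo32* and *Trim63* had −0.23 and −0.36, with adjusted p of 0.794 and 0.555 by edgeR. The fiber marker list (12 genes) had a median of −0.55 in the same libraries, and its part in these values was not tested. In the list of other CREB/ATF factors and *Ep300*, 16 tested in all, 1 was higher (*Creb5*, 0.64) and 0 were lower (median 0.08), against 4.68% and 6.22% of all tested genes.

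**Figure D5:**
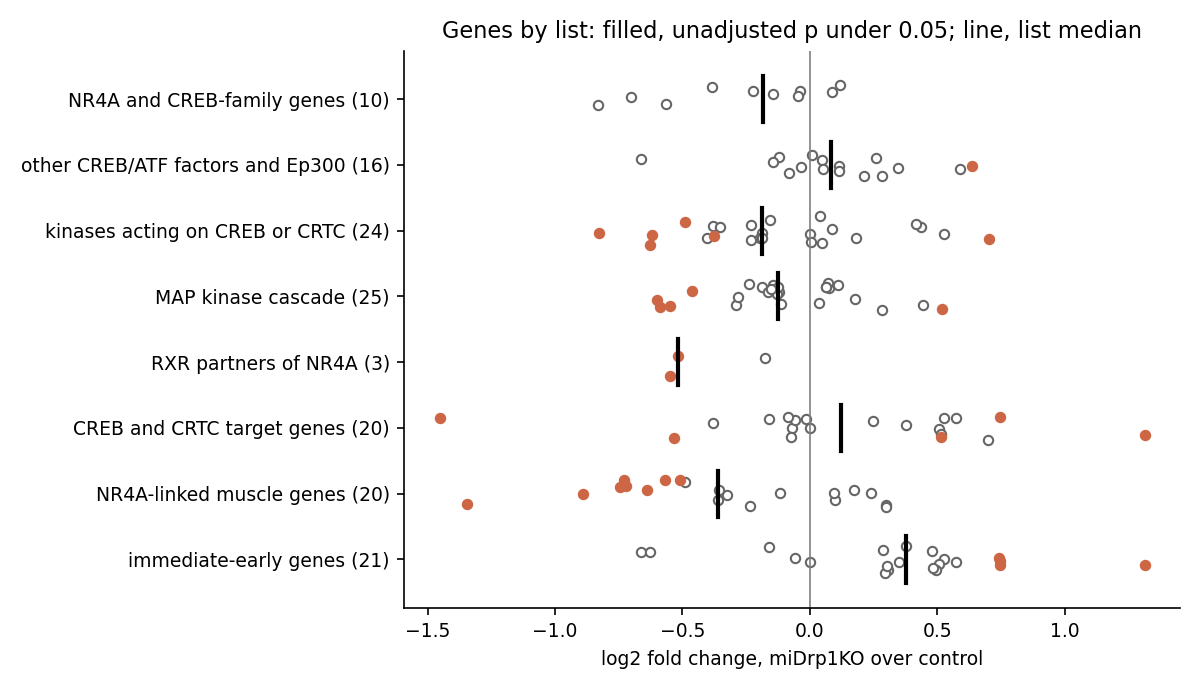
Log2 fold change of miDrp1KO over control for the genes of the 8 pathway lists (cell type markers are not drawn), with the number tested in brackets. Filled points have an unadjusted p under 0.05 (edgeR), open points do not, and the line is the list median, which among these 8 runs from −0.52 for the 3 RXR genes to 0.38 for the immediate-early genes.

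In the 6 libraries the genes whose log2 CPM was most like that of each receptor were given as a description, over 13446 genes. For *Nr4a1* they were *Dennd1b*, *Thrap3* and *Snap23* (Pearson r of 0.998, 0.993 and 0.993), and 613 genes had r over 0.9. For *Nr4a2* they were *Mta2*, *Pon2* and *Sbk1* (0.984, 0.984 and 0.982), with 65 genes over 0.9. For *Nr4a3* they were *Mmp19*, *Recql* and *Sox7* (0.986, 0.986 and 0.984), with 122 genes over 0.9. The 6 points share 1 scaling and hold both groups.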

How the data were processed

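RNA from quadriceps of 3 control and 3 miDrp1KO mice was sequenced by the authors from stranded, ribosomal RNA-depleted libraries in 2 pools, whose assignment is not given in the sources used here. The authors ran FastQC and used Rsubread for alignment (GRCm38) and counting per gene. The deposited values are raw counts, 1 file per library. The authors tested them with DESeq2 1.30.0.

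Here counts of genes kept by filterByExpr (16483) were scaled by TMM and tested for genotype alone with edgeR 4.0.16 (robust quasi-likelihood, R 4.3.3, Benjamini-Hochberg over all tested genes, threshold 0.05). Alternatives were DESeq2 1.42.0, limma voom (limma 3.58.1), other scalings and filters, a fit with 38 ribosomal RNA genes and *Lars2* removed, and fits without each library in turn. DESeq2's independent filtering was set to 0.05. Log2 CPM used a prior count of 2. The edgeR step was checked on simulated counts. Exon lengths were from GENCODE and promoters from RefSeq. Total counts of 13989588 to 62042255 set the precision, and only counting error shrinks with depth.

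The genes and all lists were chosen with earlier results of these data known. All 10 genes were named, with up to 4 genes per list of smallest unadjusted p and mean of at least 1 CPM, and a few fixed ones (*Mapk3*, *Ep300*, *Sik1*, *Fbxo32*, *Trim63* and *Dnm1l*). Some genes that the rule names are not reported here.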

Additional observations from a re-analysis of the deposited data

How the results depend on the processing

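None of the 10 genes had an adjusted p under 0.05 in any of the 15 alternatives. The number with an unadjusted p under 0.05 was 1 with limma voom and 1 with no filter on low counts (*Nr4a2* each time), where 12.5% and 9.4% of all genes had one. It was 0 to 2 without 1 library, where 5.36% (without D) to 17.5% (without A) of all genes had one, and was 2 without E, where 7.18% did. The number whose groups did not overlap was 0 with upper quartile scaling and 1 to 3 without 1 library, where 17.8% and 23.1% to 37.7% of all genes did not overlap. *Nr4a1*, *Nr4a2*, *Nr4a3*, *Creb1*, *Crem* and *Crtc3* kept their sign in all 15, *Nr4a1* between −1.08 (without A) and −0.30 (without F), *Nr4a2* between −1.08 (E) and −0.40 (D), *Crem* between −0.37 (C) and −0.0085 (D) and *Crtc3* between −0.46 (E) and −0.22 (F). The median over the 10 genes was −0.27 without C, −0.11 without D, −0.12 without F and −0.097 with upper quartile scaling, which moved the median over all genes from 0.02 to 0.11. With that scaling *Atf1* was at 0.056 and *Crtc2* at 0.040, below the all-gene median as before. *Atf1* was at 0.0080 with at least 10 counts in every library and 0.0055 without ribosomal RNA genes and *Lars2*, and ran from −0.17 to 0.095 without 1 library. *Crtc2* ran from −0.16 to 0.072 without 1 library, *Crtc1* from −0.14 to 0.23 and *Crebbp* from −0.34 to 0.061. The causes were not tested. No paired analysis was possible because the sources used here give no pairing of miDrp1KO with control mice.

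Over all genes edgeR called 2, limma voom 1, edgeR with no filter 8, and edgeR without 1 library 1 to 7 (7 without A). DESeq2 called 121 of 2860 genes given an adjusted p. Its filtering target of 0.05 was kept after the count at the default of 0.1 had also been seen, and 2 alternatives chosen after seeing the data are given for that reason: with 0.1 it called 82 of 6962, and on the genes edgeR tested 94 of 4018. *Nr4a1* had adjusted p of 0.249, 0.352 and 0.346 in these DESeq2 fits. *Nr4a2* and *Nr4a3* rest on 10 to 237 counts a library.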

Other observations

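The ratio of *Crebbp* to *Ep300* CPM, chosen after the values were seen, was 1.86 in B, 2.37 in C and 2.24 in D (control) and 2.05 in A, 1.73 in E and 1.53 in F (miDrp1KO). The means were 2.16 ± 0.263 and 1.77 ± 0.260 (SD, n = 3 each, exact two-sided permutation test, p = 0.2), and the groups overlapped. E and F, which were also lowest in *Nr4a1*, had the lowest ratios. *Fbxo32*, which encodes atrogin-1 and whose order was looked at after its values were seen, ordered the libraries almost as *Nr4a1* did. It was at 695, 652 and 635 CPM in A, C and B and at 441, 411 and 363 in D, E and F. *Trim63*, looked at likewise, came close to that order too. Its levels were 453, 374 and 343 CPM in C, B and A and 328, 286 and 273 in D, E and F. Likeness to *Nr4a1* was common, with r over 0.9 in 613 of 13446 genes.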
